A study of Bos taurus with 8 samples.

Results

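Among 8 dominant follicles of Holstein cattle, 4 carried a very high level of VNN1 transcript in their granulosa cells and 4 a low one, and these 4 VNN1-high follicles are described here against the 4 VNN1-low follicles. The 2 states were chosen by measured values. Each follicle was ranked by the log2 background-subtracted intensity of the array's only VNN1 probe, averaged over its 2 dye-swapped arrays, and the upper 4 and lower 4 of the ranking were taken. In pairs 2, 3 and 4 the atretic follicle was VNN1-high and its growing partner VNN1-low. In pair 1 it was the reverse, with the growing follicle VNN1-high and the atretic one VNN1-low. The states are therefore expression states and cut across the phase labels.

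Granulosa cells form the inner layer of the follicle wall, and the study scraped them out of dominant follicles of slaughterhouse ovaries. It ranked the follicles by the DNA content of their cells in flow cytometry. The ends of the ranking were labelled as growing and as atretic, meaning in regression. Follicles with intermediate values formed a plateau group, which is not on the arrays used here. After linear amplification, the RNA of 1 atretic follicle and that of 1 growing follicle took a Cy5 and a Cy3 label and competed on the same two-colour array of bovine transcripts, and each of the 4 pairs was hybridised again with the dyes exchanged, giving 8 arrays. The cycle stage of the animals was unknown, and the sources used here do not say whether each follicle came from an animal of its own, so any spread reported below is that between these follicles.

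VNN1 encodes vanin 1, a membrane-bound pantetheinase that splits pantetheine into pantothenate, the precursor of coenzyme A, and cysteamine, an antioxidant thiol. ANGPT2 encodes angiopoietin 2, a secreted ligand of the endothelial receptor TEK that mostly opposes the stabilising ligand ANGPT1. NRP1 encodes neuropilin 1, a co-receptor for vascular endothelial growth factor and for class 3 semaphorins. The granulosa layer holds no vessels of its own while the follicle is intact, and vascular signals made there act on the surrounding theca.

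In the ranking that chose the states, the log2 background-subtracted VNN1 level in the VNN1-high state was 15.97 for atretic 2, 15.98 for atretic 3, 15.75 for atretic 4 and 15.98 for growing 1, against 10.29 for atretic 1, 9.34 for growing 2, 10.42 for growing 3 and 9.08 for growing 4 in the VNN1-low state, each follicle named by phase and pair. The member just inside the upper group was the atretic follicle of pair 4 at 15.75, and the member just outside it was the growing follicle of pair 3 at 10.42, so that no follicle lay in between. The probe reached the scanner's upper limit on 4 of the 8 arrays of the VNN1-high follicles, so that the levels of atretic 2, atretic 3 and growing 1 are lower bounds, while atretic 4 was below the limit on both of its arrays. VNN1 was left out of every count that follows. Between 48.4% and 72.1% of probes exceeded the negative control spots in a channel, and the 2 arrays of a pair correlated at 0.62 to 0.78 once turned the same way. Between different pairs, the log ratios of pairs 2, 3 and 4 correlated with one another at 0.06 to 0.54. Those of pair 1 correlated with the other pairs at -0.25 to 0.05 among arrays of the same dye orientation. Among arrays of opposite orientation, pair 1 correlated with the other pairs at -0.40 to -0.08. Because the states were chosen on these follicles, all differences between them are descriptions with no test.

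Levels are given as normalised log2 intensities, always with the VNN1-high follicles in the order atretic 2, atretic 3, atretic 4 and growing 1, and the VNN1-low follicles in the order atretic 1, growing 2, growing 3 and growing 4, where the number is that of the pair. Differences are the mean of the VNN1-high follicles minus the mean of the VNN1-low follicles, and 1 log2 unit is a doubling. A gene is called set apart when all 4 follicles of one state lay above all 4 of the other and the means differed by at least 1. The gap is the distance between the nearest follicles of the 2 states.

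Of 36295 probes bright enough to be counted, 379 were set apart and higher in the VNN1-high follicles (1.04% of the probes) and 283 were set apart and lower (0.78%). With the brightest probe of each gene, 206 of 13625 genes were higher (1.51%) and 161 were lower (1.18%). These shares are the background of the counts below, and since the states were chosen on the same follicles nothing is read from them. The split between the directions depended on normalisation, with 274 probes higher and 339 lower when each channel was only centred on its median, so that 44.7% of the set-apart probes were higher, against 57.3% with the main normalisation. The arrays with the atretic follicle in Cy5, all of them on 1 slide, gave 398 probes higher and 310 lower, and those with the growing follicle in Cy5 gave 338 higher and 275 lower. Leaving out a pair left 3 follicles a state to keep apart, and gave 674 higher and 568 lower probes without pair 1, 546 and 558 without pair 2, 428 and 321 without pair 3 and 767 and 687 without pair 4. Since 3 follicles a state are easier to keep apart than 4, list counts without a pair are to be read beside these larger counts. With all pairs, the differences reached at least 4-fold in 45 higher and 36 lower genes and at least 8-fold in 18 higher and 5 lower genes.

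ANGPT2 and NRP1 were the genes with the widest gaps among those higher in the VNN1-high follicles. ANGPT2 had log2 levels of 13.51, 12.98, 10.88 and 12.36 in the VNN1-high follicles, against 7.19, 7.58, 6.86 and 7.18 in the VNN1-low follicles. All 4 VNN1-high follicles were well above every VNN1-low follicle, and the VNN1-low levels lay at the edge of detection, above the negative control spots on 4 of 8 arrays and on 0 of 2 in growing 4. The means were 12.43 ± 1.14 and 7.20 ± 0.29 (SD, n = 4 each), a difference of 5.23 between measured levels. NRP1 was bright in both states, at 15.16, 15.41, 15.28 and 15.62 in the VNN1-high follicles, against 11.78, 11.08, 11.07 and 10.59 in the VNN1-low follicles. The growing follicle of pair 1 held the highest NRP1 level and the atretic follicle of pair 1 the highest of the lower state, with no overlap and a gap of 3.38. NRP1 differed by 4.24, and its further probes gave 3.71 and 2.59. The study quantified both genes by qRT-PCR, and since how it picked them is not stated, they are not taken as independent evidence of the states. Between its phases, which are not the states used here, it reported similar NRP1 levels and higher ANGPT2 levels in atretic follicles.

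**Figure D1:**
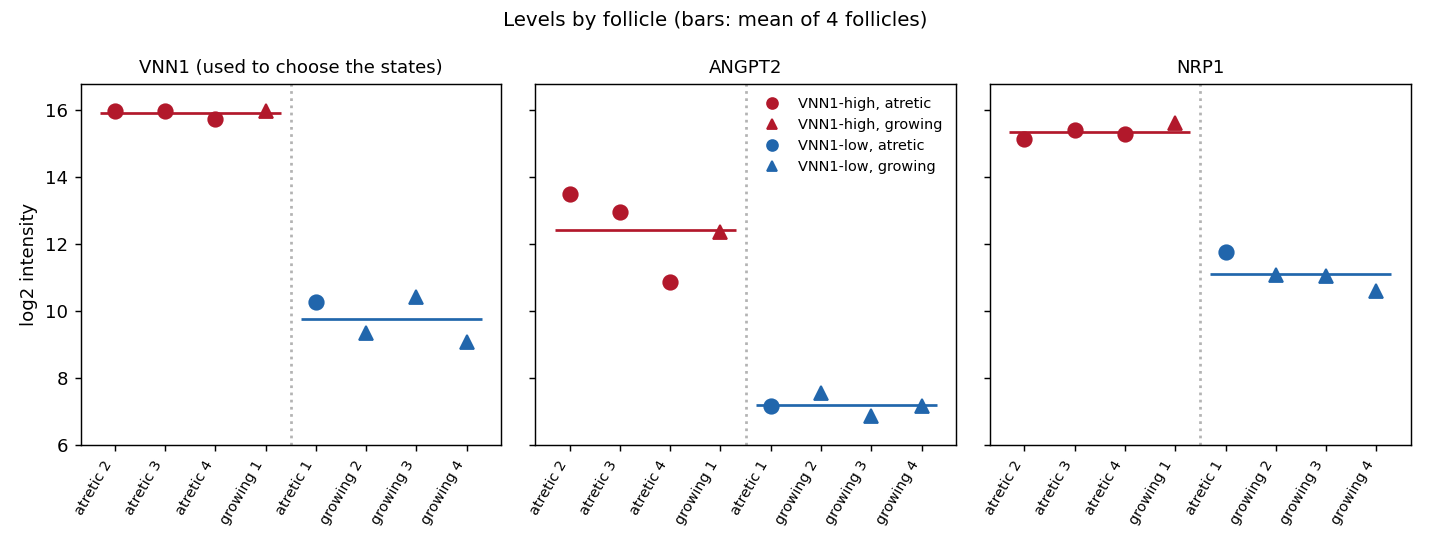
Log2 intensity of VNN1 (background-subtracted, the value that chose the states), ANGPT2 and NRP1 (normalised) in each of 8 follicles, with VNN1-high follicles in red on the left, VNN1-low follicles in blue on the right, circles for atretic and triangles for growing follicles, and a bar at the mean of 4 follicles. For ANGPT2 the VNN1-high follicles sit between 10.88 and 13.51 and the VNN1-low follicles between 6.86 and 7.58.

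Most of the vascular list overlapped between the states. Of 38 measured genes for angiogenesis and vascular signals, 2 were set apart as higher, ANGPT2 and NRP1, and 0 as lower, with a median difference of -0.01, beside 0.0005 over all genes. VEGFA, the main growth factor of vessels, had 7.77, 8.27, 7.89 and 8.11 in the VNN1-high follicles, against 9.12, 7.99, 8.95 and 8.75 in the VNN1-low follicles, and the states overlapped. ANGPT1 and HIF1A, the oxygen-regulated subunit of hypoxia-inducible factor, overlapped as well, with differences of -0.92 and -1.11. KDR, the VEGF receptor of endothelium, ran at 9.55, 9.36, 7.51 and 10.41 against 6.80, 11.03, 7.11 and 6.65, where the growing follicle of pair 2 had the highest level of all. Of 20 semaphorins and plexins, the ligands and receptors that share neuropilins, 1 was set apart, SEMA4B with a difference of 1.38 and a gap of 0.01, and the median difference was 0.04. Without pair 2 the vascular list had 4 higher and 2 lower genes, and without pair 4 it had 2 higher and 3 lower.

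Several of the other genes with the widest gaps encode metabolic and transcriptional regulators. PDK4, the kinase that shuts off pyruvate dehydrogenase, had 14.20, 13.35, 12.33 and 13.70 in the VNN1-high follicles, against 9.43, 9.55, 8.63 and 8.67 in the VNN1-low follicles. That is a difference of 4.33 or 20.1-fold with a gap of 2.78, although its dimmer probes gave 2.00 and 0.86, neither set apart. MYC, a transcription factor of growth, had 12.24, 11.58, 10.81 and 12.03 against 7.87, 8.08, 8.87 and 8.42, a difference of 3.36. CITED2, a transcriptional cofactor that limits hypoxia-inducible factor, had 12.09, 12.67, 13.15 and 12.84 against 10.33, 8.96, 9.96 and 9.32, a difference of 3.04. In none of the 3 did the states overlap.

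Other genes of the higher set belong to the cell surface, the matrix and the cytoskeleton. MXRA8, a membrane protein of the immunoglobulin family, was among the brightest, at 15.93, 15.75, 15.02 and 15.65 in the VNN1-high follicles, against 12.10, 11.56, 10.82 and 10.13 in the VNN1-low follicles. SYNE1, which links the nuclear envelope to the cytoskeleton, differed by 3.84, and its VNN1-high levels spanned 13.05 to 13.72, against 8.81 to 10.23 in the VNN1-low follicles. ANK3, an ankyrin that anchors membrane proteins to spectrin, differed by 3.06, and MYH11, the smooth muscle myosin heavy chain, by 3.68. CYR61, a secreted matricellular protein, differed by 2.69, with 15.30 in the atretic follicle of pair 2 and 13.48 to 13.74 in the other VNN1-high follicles. The remaining genes of the 15 with the widest gaps were LRRC17, SEPP1 (selenoprotein P, a selenium carrier), CHMP4C (a subunit of the membrane-cutting ESCRT machinery), MAN1A1 (a mannosidase of N-glycan trimming) and GRM8 (a metabotropic glutamate receptor), with differences of 3.11 to 3.90.

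**Figure D2:**
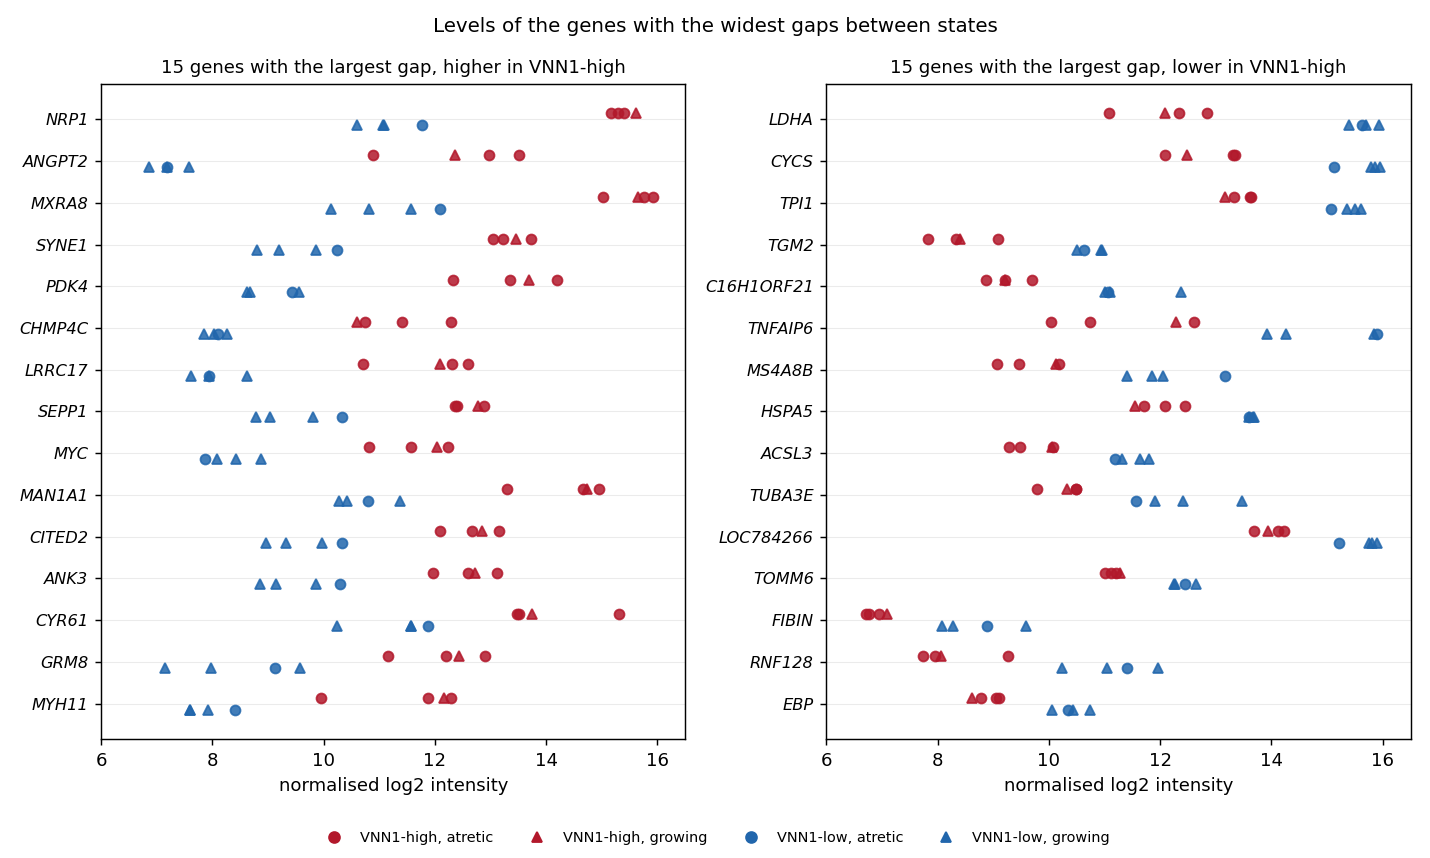
Normalised log2 intensity (x axis) of the 15 genes with the largest gap in each direction, with VNN1-high follicles in red above and VNN1-low follicles in blue below on each row, circles for atretic and triangles for growing follicles. In every row the 4 red symbols and the 4 blue symbols occupy separate ranges, from a gap of 3.38 for NRP1 and 2.55 for LDHA at the top to 1.55 for MYH11 and 0.97 for EBP at the bottom.

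Among genes lower in the VNN1-high follicles, LDHA and TNFAIP6 differed most. LDHA, the lactate dehydrogenase subunit that turns pyruvate into lactate, had 11.07, 12.85, 12.34 and 12.09 in the VNN1-high follicles, against 15.63, 15.70, 15.40 and 15.93 in the VNN1-low follicles. The 4 VNN1-low follicles were tightly grouped, and the gap to the nearest VNN1-high follicle was 2.55. The difference was -3.58, or 11.95-fold, and a second LDHA probe gave -3.60. TNFAIP6, a hyaluronan-binding protein that stabilises the cumulus matrix at ovulation, had 10.03, 10.73, 12.62 and 12.28 against 15.90, 15.85, 14.27 and 13.92. Within each state its levels spanned more than the gap of 1.31 that separated the states. CYCS, cytochrome c of the respiratory chain, differed by -2.88 with a gap of 1.79.

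TGM2, a protein-crosslinking transglutaminase, differed by -2.35, and RNF128, an E3 ubiquitin ligase, by -2.91. A second RNF128 probe gave -0.86 and was not above the negative controls on any VNN1-high array. MS4A8B differed by -2.41, C16H1ORF21 by -2.14, TUBA3E by -2.06, FIBIN by -1.83, LOC784266 by -1.67 and TOMM6, a subunit of the mitochondrial import pore, by -1.25. FIBIN was near the negative controls in the VNN1-high follicles, above them on 1 of 8 arrays, and its other probe, dim in both states, gave 0.07.

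Glycolysis was the list with the most set-apart genes. In granulosa cells glucose is largely turned into lactate. Of 34 measured genes of glycolysis and hypoxia, 11 were set apart as lower in the VNN1-high follicles and 2 as higher, with a median difference of -0.66. The lower ones ran along the pathway, from GPI (-1.18) and PFKP (-1.42) through ALDOA (-1.48), TPI1 (-1.95), PGAM1 (-1.21) and ENO1 (-1.97) to LDHA, and included the lactate carriers SLC16A1 (-2.34) and SLC16A3 (-1.95). TPI1, triose phosphate isomerase, had 13.32, 13.63, 13.61 and 13.16 in the VNN1-high follicles, against 15.08, 15.36, 15.50 and 15.60 in the VNN1-low follicles. Both states were narrow for TPI1, with SDs of 0.23 each and a gap of 1.44. P4HA1 (-1.12), a collagen prolyl hydroxylase, and BNIP3 (-1.05), a mitophagy receptor, were lower too.

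The 2 higher genes of that list were EGLN1 and ADM. EGLN1, the oxygen sensor that marks hypoxia-inducible factor for degradation, had 12.24, 11.36, 11.72 and 11.55 in the VNN1-high follicles, against 9.91, 9.29, 9.67 and 10.54 in the VNN1-low follicles. ADM, the vasodilator peptide adrenomedullin, had 11.95, 10.09, 9.01 and 11.77 against 7.50, 8.90, 7.24 and 7.44. Its states were separated by only 0.11, between the atretic follicle of pair 4 and the growing follicle of pair 2, while their means differed by 2.93. Over the alternatives run, the list had 9 to 13 lower and 1 to 2 higher genes.

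The set-apart genes of cholesterol synthesis were lower in the VNN1-high follicles too. Of 29 measured genes, 7 were set apart as lower and 0 as higher, with a median difference of -0.66. Without pair 4 the number of lower genes was 13, and without pair 2 it was 10, with 1 gene higher. Over all probes the lower count rose as well, from 283 to 687 without pair 4 and to 558 without pair 2. EBP, a sterol isomerase, had 8.79, 9.10, 9.04 and 8.62 in the VNN1-high follicles, against 10.34, 10.06, 10.73 and 10.43 in the VNN1-low follicles, with a gap of 0.97. The others were NSDHL (-2.09), CYP51A1 (-1.88), FDPS (-1.71), IDI1 (-1.69), DHCR7 (-1.48) and FDFT1 (-1.02), which span the pathway from isoprenoid precursors to the last step of cholesterol. Within the VNN1-high state the follicles were far from uniform. CYP51A1 was at 11.03 in the atretic follicle of pair 2 and at 13.88 in that of pair 4, close to the VNN1-low range of 14.20 to 14.63.

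Of 37 genes of fatty acid uptake and storage, 3 were set apart as lower and 1, PDK4, as higher. The lower ones were the desaturases FADS2 (-2.76) and SCD (-2.07) and ACSL3 (-1.76), which activates fatty acids for lipid droplets. Dimmer ACSL3 probes gave -1.44, set apart, and -0.48, not set apart. SCD had 12.40, 14.20, 14.50 and 13.36 in the VNN1-high follicles, against 15.82, 15.19, 15.80 and 15.92 in the VNN1-low follicles.

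Chaperones of the endoplasmic reticulum were lower in the VNN1-high follicles. Of 26 genes of the unfolded protein response, 7 were set apart as lower and 1 as higher, with a median difference of -0.44. HSPA5, the master chaperone BiP, had 12.09, 11.71, 12.46 and 11.54 in the VNN1-high follicles, against 13.60, 13.59, 13.68 and 13.67 in the VNN1-low follicles. The 4 VNN1-low follicles agreed to an SD of 0.05, against 0.41 among the VNN1-high follicles. MANF (-2.30), CALR (-1.68), CRELD2 (-1.60), DNAJB11 (-1.46), HSP90B1 (-1.42) and PDIA3 (-1.24) are secreted or resident folding factors and were also lower. HERPUD1, a membrane component of the degradation of misfolded proteins, was the exception, at 13.27, 14.05, 13.53 and 13.91 against 12.38, 9.92, 11.91 and 12.02. The stress transcription factors DDIT3 (0.34) and ATF4 (0.05) overlapped between the states.

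**Figure D3:**
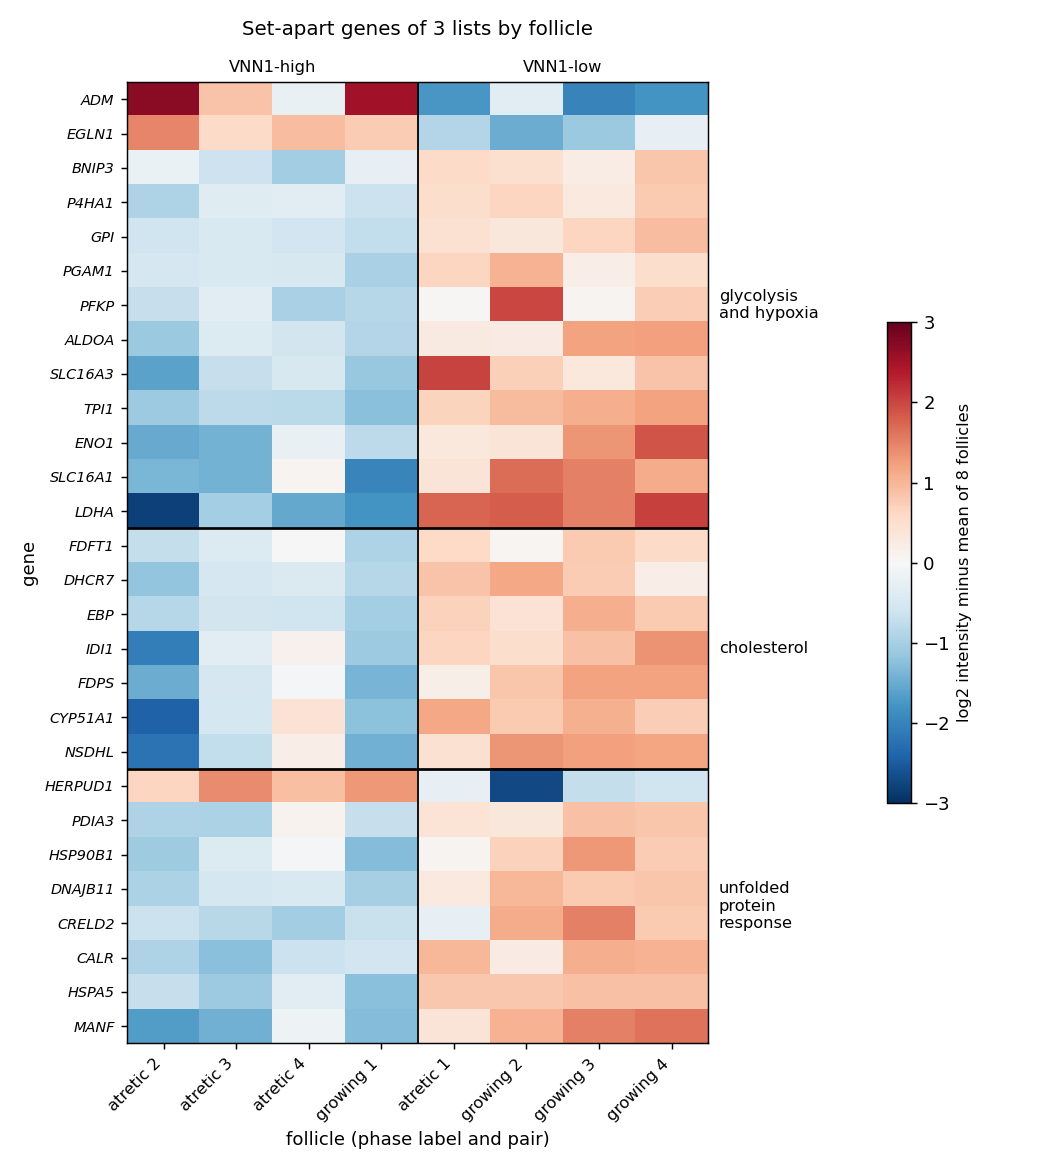
Log2 intensity of the set-apart genes of 3 lists in each follicle, as the distance from the mean of the 8 follicles (colour, red above and blue below that mean), with VNN1-high follicles in the 4 left columns and VNN1-low follicles in the 4 right ones. ADM, EGLN1 and HERPUD1 are the rows that are higher in the VNN1-high follicles, and the atretic follicle of pair 4 is the palest of the 4 left columns for most cholesterol genes.

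Transcripts of cell division followed 2 follicles more than the state. In the list of 60 mitosis genes, the VNN1-high mean was the lower one for 58, beside 6799 of 13625 over all genes. The median difference was -1.35, but 3 were set apart, PTTG1 (-2.29), SPC24 (-2.03) and CKS1B (-1.26). CCNB1, the cyclin of mitotic entry, had 7.69, 9.17, 10.08 and 8.05 in the VNN1-high follicles, against 9.43, 10.41, 13.00 and 13.37 in the VNN1-low follicles. The growing follicles of pairs 3 and 4 stood above all others, while the growing follicle of pair 2 lay just above the VNN1-high levels and the atretic follicle of pair 1 within them. The count moved with the follicles included, with 16 genes without pair 1, 6 without pair 2, 17 without pair 4 and 30 with the deposited ratios, where every pair had to agree in sign. Of 43 genes of DNA replication, 1 was set apart, POLE2 (-1.46), and the median difference was -0.51. Without pair 2, 5 were set apart, and without pair 1, 3.

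Genes of granulosa identity and hormone response were split. Of 28 measured, 2 were set apart as lower and 1, CITED2, as higher. AMH, the anti-Müllerian hormone made by granulosa cells, had 9.41, 10.13, 10.98 and 9.93 in the VNN1-high follicles, against 12.35, 11.43, 12.18 and 11.97 in the VNN1-low follicles, a difference of -1.87. INHA, the inhibin alpha subunit, differed by -1.39, but it reached the scanner limit on 1 of 8 arrays of the VNN1-high follicles and on 6 of 8 of the VNN1-low follicles, so that its levels there are lower bounds. FSHR, the receptor of follicle-stimulating hormone, overlapped, with a difference of 0.37. The LH receptor LHCGR overlapped as well, with 7.70, 8.06, 11.25 and 8.22 against 13.05, 6.76, 10.51 and 9.65. Without pair 2, 3 genes of this list were higher and 6 lower.

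Aromatase cut across the states. CYP19A1, which makes oestradiol, had 8.80, 11.77, 15.32 and 11.43 in the VNN1-high follicles, against 15.91, 7.42, 15.76 and 14.66 in the VNN1-low follicles. The lowest level of all was in a VNN1-low follicle, the growing follicle of pair 2, and the atretic follicle of pair 4 was among the highest. None of the 18 measured genes of steroidogenesis was set apart in either direction, with a median difference of -0.60. CYP11A1, which cleaves the cholesterol side chain, overlapped through the growing follicle of pair 2 alone, at 11.05, 11.38, 12.56 and 11.87 against 15.34, 11.76, 15.16 and 15.16. Of 14 luteal markers, 1 was set apart, RGN (regucalcin), at 7.72, 8.38, 11.12 and 8.71 against 12.77, 13.04, 11.64 and 11.66. TNFAIP6 was the set-apart member of 30 genes of the ovulatory LH response, whose median difference was -0.16. Without pair 2, 3 genes of steroidogenesis were set apart as lower, and without pair 4, 6 genes of the LH response and 3 luteal markers.

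In TGF-beta, activin and BMP signalling, 2 of 43 genes were set apart as higher, the co-receptor TGFBR3 (2.38) and the BMP receptor BMPR1B (1.48), and 3 as lower, AMH, INHA and the activin binder FSTL3 (-1.83). FSTL3 had 8.48 to 9.22 in the VNN1-high follicles, against 13.93 in the growing follicle of pair 2 and 9.58 to 9.80 in the other VNN1-low follicles. None of 15 genes of the IGF system was set apart, and their median difference was 0.03. Further probes of TGFBR3, dimmer than the one used, gave 1.33 and 0.51 and were not set apart. Without pair 4, 4 genes of the TGF-beta list were higher and 4 lower, and 2 of the IGF system were lower.

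Genes of the death machinery were set apart in both directions. Of 34 apoptosis genes, 3 were set apart as higher and 2 as lower, with a median difference of 0.07. The apoptosome genes went apart, with CASP9 (1.40) and APAF1 (1.64) higher and CYCS lower, although dimmer CASP9 probes gave 1.06 and 0.24 and were not set apart. GADD45A, a stress-induced growth arrest gene, had 13.21, 10.25, 9.22 and 12.96 in the VNN1-high follicles, against 7.97, 9.11, 7.18 and 7.73 in the VNN1-low follicles, where the atretic follicle of pair 4 lay only 0.11 above the growing follicle of pair 2. The death receptor FAS was higher in every VNN1-high follicle, with a difference of 0.42, below the minimum.

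Because vanin 1 acts on pantetheine and yields a thiol, the related pathways were read too. Of 15 other genes of coenzyme A and pantetheine, none was set apart, and the median difference was 0.06. VNN2, the neighbouring vanin, had 11.98, 11.31, 10.34 and 12.21 in the VNN1-high follicles, against 8.39, 12.50, 7.11 and 7.56 in the VNN1-low follicles, and overlapped through the growing follicle of pair 2, the highest of the 8. Of 38 antioxidant genes, 2 were set apart as higher, SESN1 (1.25) and the mitochondrial superoxide dismutase SOD2 (1.00), and 2 as lower, PRDX1 (-1.92), a peroxiredoxin, and MGST1 (-1.18). SESN1 gave 0.93 on the arrays with the atretic follicle in Cy5 and did not pass the minimum there, and its dimmer probes gave 0.39 and -0.01. Those arrays gave 0 higher and 4 lower antioxidant genes. The count of lower ones was 4 to 6 when any 1 pair was left out, 6 of them without pair 4.

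Of 37 genes of extracellular matrix and basal lamina, 2 were set apart as higher, both of the basal lamina, LAMB1 (2.59) and COL4A5 (1.58), and the median difference was 0.13. Without pair 4, 3 were higher and 5 lower, and without pair 1, 2 were higher and 2 lower. LAMB1, a laminin chain, had 11.38, 11.49, 9.91 and 11.37 in the VNN1-high follicles, against 9.21, 9.51, 7.78 and 7.30 in the VNN1-low follicles. Of 32 junction genes, ANK3 and CTNNA2 (2.04), an alpha catenin, were higher and CLDN11, a claudin, was lower by 2.50 on the log2 scale. CLDN11 had 6.83 to 8.17 in the VNN1-high follicles, against 13.82 in the growing follicle of pair 2 and 8.51 to 8.81 in the other VNN1-low follicles, and without pair 2 its difference was -1.45. Without pair 2, 4 junction genes were higher and 2 lower.

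Ribosomal protein genes leaned to the VNN1-high state by small amounts. All 39 measured had a higher mean there, beside 6826 of 13625 over all genes. The median difference was 0.33, and RPS27 (1.31) and RPS12 (1.13) were set apart. Without pair 2 neither was set apart and the median difference was 0.21, while 5 genes were set apart without pair 4. Of 48 genes of oxidative phosphorylation, 1 was set apart, NDUFA4 (-1.24), with a median difference of -0.50, and without pair 2 or without pair 4 the number was 4. Of 26 interferon response genes, IRF7 (1.61) and IFIT5 (1.09) were higher, and the median difference was 0.25. Without pair 3, 5 interferon genes were higher. None of 31 inflammation genes was set apart, with a median difference of 0.06, and 2 were higher without pair 2.

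**Figure D4:**
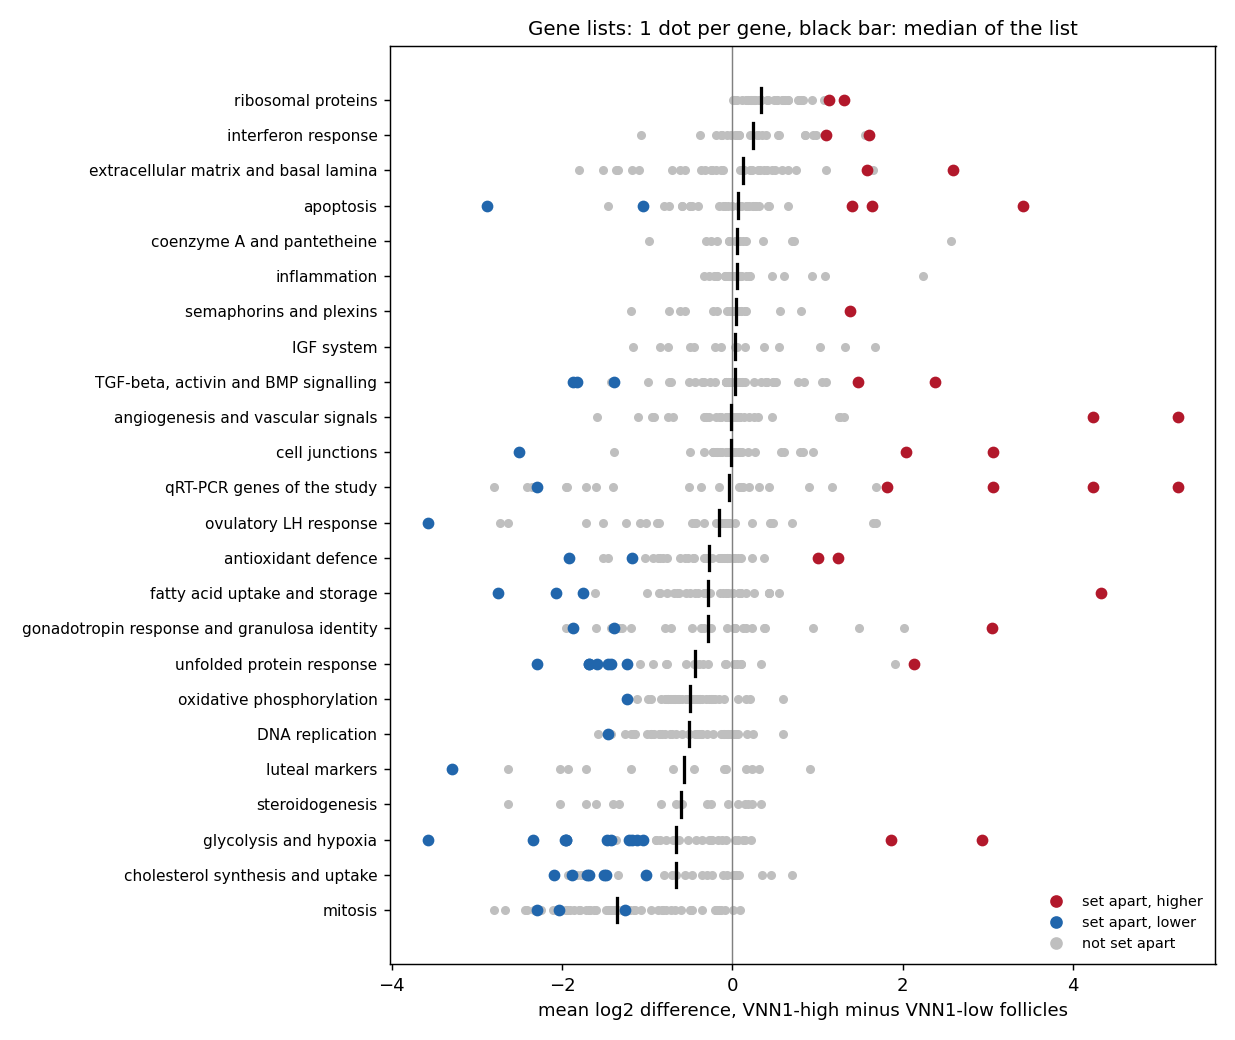
Mean log2 difference, VNN1-high minus VNN1-low follicles (x axis), of every measured gene of each list (1 dot per gene), with red dots for genes set apart as higher, blue dots for genes set apart as lower, grey dots for the rest and a black bar at the median of the list. The medians run from 0.33 for ribosomal proteins to -1.35 for mitosis, and blue dots are most numerous for glycolysis and hypoxia.

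The study quantified 28 genes besides VNN1 by qRT-PCR, EIF2B2 and SF3A1 among them as reference genes. How the others were picked is not stated for most, so the list is not taken as independent evidence. Of 26 measured here, 4 were set apart as higher, ANGPT2, NRP1, ANK3 and the peptide gene NMB (1.82), and 1 as lower, PTTG1. CD36 overlapped with a difference of 0.43 at its brightest probe, while its dimmer probes gave 2.53 and 1.21, neither set apart. TYRO3, a receptor tyrosine kinase that takes part in the uptake of dying cells, overlapped with a difference of 1.17, and so did NR4A1, an immediate early nuclear receptor, with 1.69. MT2A, a metallothionein, had 7.99, 7.58, 8.18 and 7.97 in the VNN1-high follicles, against 7.47, 12.78, 9.00 and 11.88 in the VNN1-low follicles, where growing 2 and growing 4 stood out. Without pair 1 the counts of this list were 6 higher and 7 lower, and without pair 4 they were 5 and 6.

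Markers of granulosa cells were present in every follicle, with 10 of 12 above the negative controls on all 16 channels. Their summed log2 level was 16.81 to 18.19 in the VNN1-high follicles and 17.80 to 18.35 in the VNN1-low follicles. FOXL2, a defining transcription factor of granulosa cells, was dim on this array, at 7.32 to 9.06 in the VNN1-high follicles and 7.49 to 9.17 in the VNN1-low follicles. In such bulk samples, fewer cells of a type and less RNA per cell cannot be told apart.

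Markers of other cells showed few differences between the states. None of 12 theca, 12 endothelial, 13 leukocyte, 6 erythrocyte and 10 oocyte markers was set apart. Without pair 1 or without pair 4, 2 theca markers were lower, and without pair 4, 2 leukocyte markers were higher. Summed theca levels were 12.89 to 13.33 in the VNN1-high follicles and 12.61 to 13.89 in the VNN1-low follicles. CYP17A1, the androgen-making enzyme of theca, had 7.42, 7.36, 7.19 and 7.72 in the VNN1-high follicles, against 9.49, 9.11, 9.12 and 7.60 in the VNN1-low follicles, and the growing follicle of pair 4 overlapped. In its qRT-PCR the study took higher CYP17A1 in 1 atretic sample as a sign of considerable theca contamination, and removed that sample. The sources used here do not say whether that sample is among the atretic follicles on these arrays. In the VNN1-high follicles the summed levels were 11.09 to 11.69 for endothelium, 11.03 to 11.80 for leukocytes, 9.84 to 10.16 for erythrocytes and 10.44 to 10.74 for oocyte markers. In the VNN1-low follicles they were 11.01 to 12.002 for endothelium, 11.06 to 11.43 for leukocytes, 9.93 to 10.04 for erythrocytes and 10.59 to 10.85 for oocyte markers. Only 1 endothelial, 1 leukocyte, 0 erythrocyte and 0 oocyte markers exceeded the negative controls on all 16 channels.

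Of 9 markers of smooth muscle and pericytes, MYH11 alone was set apart, while ACTA2 (-0.11), DES (0.04) and TAGLN (0.03) overlapped, the last 2 of them near the negative controls. The summed level was 13.46 to 13.70 in the VNN1-high follicles and 12.88 to 14.11 in the VNN1-low follicles. The part of other cells in the differences above was not tested.

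The 4 VNN1-high follicles were not equally alike across the counted probes, set-apart ones included. After centring each probe on its mean, the correlation across probes between pairs of follicles ran from -0.29 to 0.22 within the VNN1-high state, from -0.20 to 0.52 within the VNN1-low state and from -0.49 to 0.19 between the states. Within the VNN1-high state, atretic 2, atretic 3 and growing 1 correlated with one another at 0.17 to 0.22. Atretic 4 correlated with these follicles at -0.29 to 0.05. These are descriptions across probes, which are not independent, and each pair's 2 follicles share their arrays. The follicle nearest to the other state was most often the atretic follicle of pair 4. It was the lowest VNN1-high follicle in 130 of the 206 higher genes and the highest in 98 of the 161 lower genes. The array of pair 4 with the growing follicle in Cy5 was on a slide of its own. Its Cy3 channel, which held atretic 4, had 48.4% of probes above the negative controls, the lowest of all channels. The 2 arrays of pair 4 correlated at 0.62, the lowest of the pairs. Whether this array bears on the place of atretic 4 was not tested. Among the VNN1-low follicles, the atretic follicle of pair 1 came nearest in 98 of 206 and 62 of 161 genes.

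The states follow the phase labels in pairs 2, 3 and 4 and oppose them in pair 1, and other genes were read for the same turn. Pair 1 was set aside because of the VNN1 ranking, and no other pair was set aside in this way. The shares below are therefore a description and no independent support for the states. Genes were taken in which the atretic follicles of pairs 2 to 4 all lay on one side of the growing follicles of those pairs by a mean of at least 1, and were then read in pair 1. Of 375 genes higher in the atretic follicles of pairs 2 to 4, 292 (77.9%) were lower in the atretic follicle of pair 1, 118 of them by at least 1, and 16 were higher by at least 1. Of 314 genes lower in the atretic follicles of pairs 2 to 4, 218 (69.4%) were higher in that of pair 1, 110 of them by at least 1, and 65 were lower by at least 1. Of the 12936 genes not taken, 53.8% ran the opposite way in pair 1.

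A compact group of the 314, singled out after its values were seen, did not turn in pair 1. These were the 65 genes in which the atretic follicle of pair 1 was lower by at least 1 as well, and by that choice none of them could be set apart between the states. Their mean level was 11.30, 11.68, 10.80 and 13.99 in the VNN1-high follicles, against 11.72, 13.35, 12.04 and 12.14 in the VNN1-low follicles, so that the growing follicles of pairs 1 and 2 were the highest. EPHB4, FADS1, HSPG2 and NDRG1 were the 4 that belong to a list used here.

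**Figure D5:**
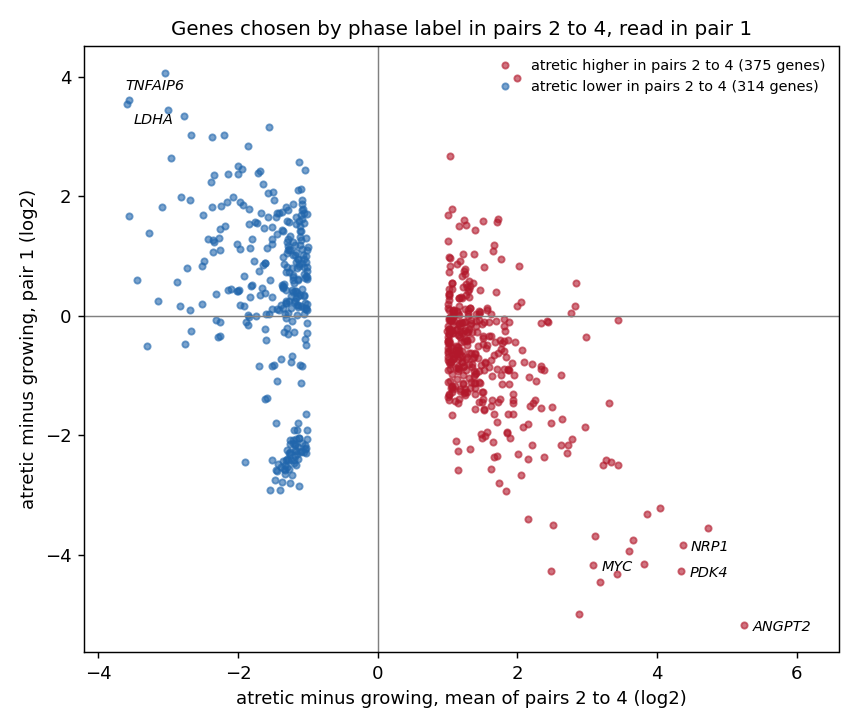
Atretic minus growing log2 difference in pair 1 (y axis) against the mean of the same difference in pairs 2 to 4 (x axis) for the 375 genes where atretic follicles were higher in pairs 2 to 4 and the 314 where they were lower, in red and in blue. Most points lie at the upper left and the lower right, that is, opposite in pair 1, with ANGPT2 at the lower right at -5.17 in pair 1, and a compact blue group of 65 genes lies at the lower left.

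The comparison by phase label, atretic over growing, is set by the labels and not by measured values, and it alone was tested. The labels of pair 1 were kept as given, and whether they stand with the right follicles cannot be told from the sources used here. With limma over 4 pairs, 0 of 36295 probes passed an adjusted p of 0.05, the smallest adjusted p being 0.716, while 2324 had an unadjusted p under 0.05. Without pair 1, limma also called 0 probes, with a smallest adjusted p of 0.0992 and 4465 probes at an unadjusted p under 0.05. For the 69 genes chosen by rule for description, the adjusted p in limma of the phase comparison ran from 0.716 to 0.966. ANGPT2 had an adjusted p of 0.873, NRP1 of 0.867 and LDHA of 0.874 in that limma fit. Of the 69 genes, 48 were set apart between the states, and the states oppose the labels in pair 1. The atretic over growing log ratio of these 48 therefore had to change sign in pair 1. For ANGPT2 it was 5.25 on average in the other pairs and -5.17 in pair 1, and for LDHA -3.59 and 3.54. Such a turn widens the spread between pairs, so the fit with all pairs cannot decide on phase for these 48. A p that misses the threshold does not show that the phases were alike in the 69 genes.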

How the data were processed

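Granulosa cell RNA of 8 follicles was read on 8 two-colour arrays. The deposited scanner files give a raw intensity and a local background per spot in Cy5 and Cy3, scanned by the authors with automatic gain. The authors also deposited log2 ratios (Cy5 over Cy3, background-subtracted, loess and quantile normalised), which correlated at 0.9986 to 0.9999 with ratios rebuilt from the intensities and were used as an alternative only. The sources used here give no genome build.

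With limma 3.58.1 in R 4.3.3, intensities were corrected by normexp (offset 50), normalised by loess within and quantile between arrays, and averaged per follicle over its 2 dye-swapped arrays. Of 45220 spots, 1426 control spots and 4 to 50 spots marked to be ignored per array were left out, 0 to 44 probes per channel were saturated, and 36295 probes averaging 7 or more in log2 intensity remained. A probe was above the negative controls when it exceeded the 95th percentile of 153 such spots. A platform table named 21790 probes with 1 symbol (22004 unnamed), and the brightest probe stood for each gene. Of the list genes, 15 were matched by an older symbol in a RefSeq table used for names only.

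The phase comparison was fitted with limma on atretic over growing ratios, 1 per pair, with Benjamini-Hochberg adjustment. Pairs share arrays, so the pair is its block by construction. The states were described without a test. Named genes were the 15 with the largest gap in each direction that exceeded the negative controls on all arrays of the higher state. Also named were ANGPT2, NRP1, the study's qRT-PCR genes and, in each list, the set-apart gene of largest gap in each direction. Other genes of the lists were named after their values were seen. The members and the 31 lists were chosen with earlier results of these data known. Scripts were tested on simulated data. Alternatives covered background correction, normalisation, dim probes, the overlap rule, array orientation, deposited ratios and left-out pairs. The number of arrays limits the precision.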

Additional observations from a re-analysis of the deposited data

Results flagged for a closer look

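In 96 groups of 4 follicles (48 genes named by rule, in each state), 6 had 1 follicle far from the other 3, judged by its gap to the nearest of them as a share of the whole range, against Dixon's critical value at 95%. Chance gives about 1 in 20 groups when groups are independent and not selected. These genes were chosen as set apart and share the same follicles, so that rate cannot be applied to them. In the VNN1-high follicles, CYR61 had a high level in the atretic follicle of pair 2 (15.30, share 0.857) and NDUFA4 in that of pair 4 (12.73, share 0.837). LAMB1 and TGFBR3 were lowest in the atretic follicle of pair 4, at 9.915 (share 0.929) and 12.88 (share 0.833). In the VNN1-low follicles, the growing follicle of pair 2 was highest for C16H1ORF21 (12.38, share 0.938) and CLDN11 (13.82, share 0.944). The follicles concerned were therefore the atretic ones of pairs 2 and 4 and the growing one of pair 2.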

How the results depend on the processing

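The number of set-apart probes, 379 higher and 283 lower, moved most with the rule. With the replicate block, where the VNN1-high follicle had only to exceed its partner in all 4 pairs, 592 were higher and 530 lower. With no minimum difference the counts were 1149 and 940, with a minimum of 2 they were 62 and 56, and the deposited ratios gave 526 and 453. Leaving out 1 pair gave 428 to 767 higher and 321 to 687 lower probes. Other background corrections, normalisations, intensity minimums and single orientations gave 274 to 398 higher and 220 to 339 lower. The top 4 follicles by VNN1 were the same by normalised level, and with 1 VNN1 probe no other probe could be tried. The phase comparison by limma gave 0 probes under every alternative, with 1240 to 4465 at an unadjusted p under 0.05. Of 849 alternative values of the 69 named genes, 15 changed sign, in 8 genes that were not set apart, such as APOA1 (-0.80 without pair 4) and JAM2 (-0.30 without pair 3). None of the 48 set-apart genes changed sign. Another 14 values moved by more than the spread between follicles, 11 of them with the mean over all probes of a gene, such as PDK4 (2.40) and NRP1 (3.51). Probes near the negative controls understate a difference, and saturated ones bound it.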
